A study of Mus musculus with 486 samples.

Results

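Bst1 is the mouse gene for CD157 (Ensembl ENSMUSG00000029082, protein coding, on chromosome 5), and the deposited table holds it as 1 of 47 gene assays read by quantitative RT-PCR in single cells of mouse bone marrow. The assay was found by its older name in the table and by its Ensembl identifier. The protein product of the same gene had been used as a surface marker to sort 1 part of the cells, so that in those cells the sort label and the transcript can be set beside each other. Bst1 transcript was detected in 95 of the 463 single cells that passed the filter. In the cells sorted as Gfra2+ and Bst1- it was detected in 29 cells and not detected in 54, and the other 46 gene assays were compared between these classes.

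All cells came from wild-type C57/Bl6 mice. Common lymphoid progenitors (CLP) had been sorted as Ly6d-Gfra2- (87 cells kept), Ly6d+Gfra2- (86 cells) and Ly6d+Gfra2+ (82 cells). FrA is a compartment of early B-lineage development. Its cells had been sorted as Gfra2- Bst1- (83 kept), as Gfra2+ Bst1- (83 kept) and as Gfra2+ Bst1+ (42 kept). Each group filled a pair of plates, except Gfra2+ Bst1+, which filled 1, and single cells of different groups never shared a plate. Plate and group therefore cannot be told apart in a comparison of groups. The labels name no animal or culture, so each group is 1 sample and no p-value is given between groups or classes of cells.

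CD157 is a membrane-anchored ADP-ribosyl cyclase related to CD38, known from bone marrow stromal cells, myeloid cells and early B- and T-cell progenitors, and in mouse marrow it is used as a surface marker of early B-cell stages. Progression of lymphoid progenitors towards B cells is driven by the transcription factors Ebf1, Foxo1 and Pax5, with expression of the recombinase genes Rag1 and Rag2 and of surrogate light chain genes such as Igll1. A surface marker sort reads protein on the membrane, whereas the assay reads mRNA in the lysed cell.

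The values are cycle thresholds (Ct), the PCR cycle at which an assay passes its fluorescence threshold. Ct falls as the amount of template grows, by 1 cycle per doubling where amplification is complete. An assay counted as detected when its Ct was at most 28, and a value of 40 stands for no Ct. Ct values of different assays were not compared with each other. The filter on cells asked for at least 2 of 3 detected reference assays (Atp5a1 and Hprt are among them) and removed 1 cell. The mean Ct of the reference assays, a measure of how much RNA was read, ranged over plates from 10.8 to 12.8, and that of the spike-in RNA from 6.63 to 10.1. The transcript of the other FrA sort gene, Gfra2, followed its label, with detection in 93.9%, 91.6% and 90.5% of cells in the 3 Gfra2+ groups and in 2.30%, 9.30% and 13.3% in the 3 Gfra2- groups.

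Bst1 transcript was read as present or absent with a wide gap between these states. The 95 detecting cells had Ct values from 12.7 to 19.0 with a median of 15.4, and 0 cells lay between the highest of these values and 40. The choice of the detection limit therefore did not move any cell for this gene.

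The share of cells with Bst1 transcript was lowest in the Ly6d-Gfra2- CLP and highest in the FrA cells sorted as Bst1+. In Ly6d-Gfra2- CLP it was detected in 0 of 87 cells (exact Clopper-Pearson 95% interval 0% to 4.15%). The simpler limit of 3 cells in 87 is 3.45%. In Ly6d+Gfra2- CLP it was detected in 5 of 86 cells, or 5.81% (1.91% to 13.0%), with 4.76% on plate 6 and 6.82% on plate 7. In FrA Gfra2- Bst1- cells the count was 5 of 83, or 6.02% (1.98% to 13.5%), with 2.44% on plate 2 and 9.52% on plate 8. These 3 groups had overlapping intervals.

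In Ly6d+Gfra2+ CLP the transcript was detected in 19 of 82 cells, or 23.2% (14.6% to 33.8%), with 22.5% on plate 1 and 23.8% on plate 10. In FrA Gfra2+ Bst1- cells, the sort label that should lack the protein, it was detected in 29 of 83 cells, or 34.9% (24.8% to 46.2%). The plates of that group differed, with 42.9% on plate 3 (18 of 42 cells) and 26.8% on plate 4 (11 of 41 cells), and their intervals overlapped. In FrA Gfra2+ Bst1+ cells it was detected in 37 of 42 cells, or 88.1% (74.4% to 96.0%). All intervals cover counting error only.

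**Figure D1:**
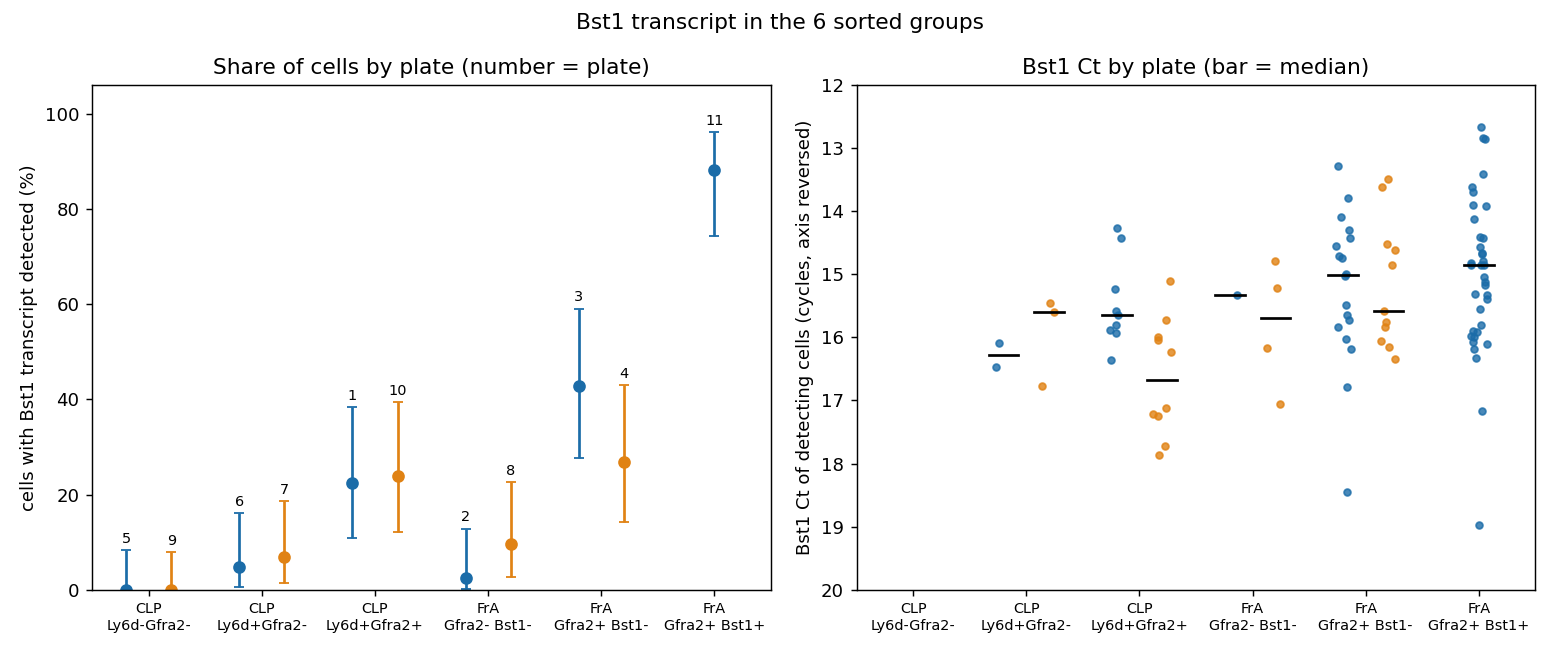
Left, percentage of single cells with Bst1 transcript on each plate (number above the point), with exact 95% intervals, by sorted group. Right, Bst1 Ct in cycles of each detecting cell, with the axis reversed so that more template is higher and a bar at the plate median. The single plate of FrA Gfra2+ Bst1+ stands at 88.1%, above the 42.9% and 26.8% of the FrA Gfra2+ Bst1- plates, while the Ct values of the detecting cells in these groups overlap.

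With no samples to repeat, a difference between groups was called by its size, when it was at least 20 percentage points and all plates of one group lay on one side of all plates of the other. Between FrA Gfra2+ cells sorted as Bst1+ and as Bst1-, the share of cells with Bst1 transcript was 53.2 points higher in the Bst1+ sort (Newcombe 95% interval 36.2 to 64.7). This was the largest difference of the 47 gene assays, of which 6.38% were called higher in the Bst1+ sort. Between Gfra2+ and Gfra2- FrA cells that shared the Bst1- label, the share was 28.9 points higher in the Gfra2+ cells (17.0 to 40.2), a called difference in a comparison where 23.4% of the assays were called higher and Bst1 was 11th by size. Plate 4, the lower of the Gfra2+ Bst1- plates, stood at 26.8% and plate 8, the higher of the Gfra2- Bst1- plates, at 9.52%.

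The same transcript did not reach the size rule among CLP. It was 17.4 points higher in Ly6d+Gfra2+ than in Ly6d+Gfra2- cells (6.82 to 28.1), where 14.9% of assays were called higher. It was 5.81 points higher in Ly6d+Gfra2- than in Ly6d-Gfra2- cells (0.447 to 12.9), where 4.26% were called higher. FrA Gfra2+ Bst1- and CLP Ly6d+Gfra2+ cells differed by 11.8 points, with an interval of -2.10 to 25.0 that holds 0, and 4.26% of assays were called higher there. That last difference was 3.66 points without plate 3 and 19.7 points without plate 4.

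Among FrA Gfra2+ cells that held the transcript, the Bst1 Ct values of the Bst1+ and Bst1- sorts overlapped. Detecting cells of the Bst1+ sort had a Ct from 12.7 to 19.0 with a median of 14.9 and a mean of 15.01 ± 1.25 (SD over 37 cells). Detecting cells of the Gfra2+ Bst1- sort had a Ct from 13.3 to 18.5 with a median of 15.0 and a mean of 15.20 ± 1.12 (SD over 29 cells). All 29 lay inside the range of the Bst1+ sort, and the means differed by -0.20 cycles (Bst1+ minus Bst1-). A level was called different at 1 cycle or more with separated plate means, which 14.3% of the 35 assays compared here met and Bst1 did not. Relative to the reference assays the difference was -0.44 cycles. The mean spike-in Ct of these detecting cells was 8.32 in the Bst1+ sort and 6.75 in the Bst1- sort. That spike-in gap is larger than the Bst1 gap, and Bst1 Ct relative to the spike-in was not tested.

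Detecting cells of Ly6d+Gfra2+ CLP had a mean Bst1 Ct of 16.07 ± 1.00 (SD over 19 cells), with 15.46 on plate 1 and 16.63 on plate 10. FrA Gfra2+ Bst1- cells were lower by -0.87 cycles, short of the rule, which 9.09% of assays met. The few detecting cells of the Gfra2- groups lay at 16.07 ± 0.56 in Ly6d+Gfra2- CLP (5 cells) and 15.71 ± 0.90 in FrA Gfra2- Bst1- cells (5 cells). The order of the mean Ct from low to high was FrA Gfra2+ Bst1+, FrA Gfra2+ Bst1-, FrA Gfra2- Bst1- and then both CLP groups, with every neighbouring pair closer than 1 SD over cells. The order did not hold relative to the reference assays, where Bst1 Ct minus reference Ct was lowest in FrA Gfra2- Bst1- cells, at 3.01 cycles, before FrA Gfra2+ Bst1+ at 3.16, FrA Gfra2+ Bst1- at 3.60, Ly6d+Gfra2- CLP at 3.86 and Ly6d+Gfra2+ CLP at 4.02. Nor did it hold on plate 1 alone, where the Ly6d+Gfra2+ CLP (15.46) lay below the FrA Gfra2- Bst1- cells.

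Detection of Bst1 was set against the amount of RNA read from the cell. When the cells of each plate were divided at its median reference Ct, the cells with more RNA and those with less had Bst1 in 47.6% and 38.1% of cells on plate 3, in 28.6% and 25.0% on plate 4, and in 90.5% and 85.7% on plate 11. On the CLP plates 1 and 10 the order was the other way, with 20.0% and 25.0% on plate 1 and 19.0% and 28.6% on plate 10. Among detecting cells, Spearman's rho between the Bst1 Ct and the reference Ct was 0.12 in FrA Gfra2+ Bst1- (29 cells), 0.40 in FrA Gfra2+ Bst1+ (37 cells) and 0.30 in CLP Ly6d+Gfra2+ (19 cells). These are descriptions over cells that share plates.

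The FrA Gfra2+ Bst1- cells were then divided by the transcript itself. A share was called different between cells with and without Bst1 transcript when it differed by at least 20 points over both plates and by at least 10 points in the same direction on plate 3 and on plate 4. Of the 46 other assays, 1 was called higher in cells with the transcript (2.17%) and 1 was called lower (2.17%). Without plate 3, with a single plate left to meet the rule, 2 were called higher and 3 lower, and without plate 4 the counts were 3 and 1. The median difference over all 46 assays was 0 points. Of these assays, 33 were neither at 0 nor in every cell, with a median of 0.96 points. The cells with the transcript held 26.8 ± 2.65 other detected assays (SD over cells) against 25.8 ± 2.47 in the cells without it. Their mean reference Ct was 11.60 ± 0.91 against 11.84 ± 0.76, and their mean spike-in Ct was 6.75 against 6.68. Compared on each side of the plate's median reference Ct, Pou2af1 differed by 39.3 and Id2 by -26.7 points, both called. Among cells with a reference Ct in the middle 50%, Pou2af1 differed by 32.7 points, which was called, and Id2 by -17.9 points, which was not.

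The assay called higher was Pou2af1, which encodes the B-cell coactivator OCA-B. On plate 3 it was detected in 77.8% of cells with Bst1 transcript and 37.5% of cells without, and on plate 4 in 81.8% and 43.3%. Over both plates this was 23 of 29 cells (79.3%) against 22 of 54 cells (40.7%), a difference of 38.6 points (16.4 to 54.8). Both plates thus gave nearly the same gap, 40.3 and 38.5 points, although they differed in their share of Bst1 cells. Pou2af1 was read late, with a lowest Ct of 20.3 in this group and means of 22.54 ± 1.07 in cells with Bst1 and 23.32 ± 1.49 in cells without. A detection limit of Ct 20 therefore leaves no Pou2af1 in either class.

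The assay called lower was Id2, an inhibitor of the E-protein transcription factors that B-cell development needs. It was detected in 4 of 29 cells with Bst1 transcript (13.8%) and in 20 of 54 cells without (37.0%), a difference of -23.2 points (-38.9 to -2.85), with -29.2 on plate 3 and -20.9 on plate 4. The call was lost when only cells with all 3 reference assays were kept (-19.3 points) and in the middle 50% of the reference Ct. Seen together in single cells, 20 of the 29 cells with Bst1 transcript had Pou2af1 without Id2, 3 had both, 1 had Id2 alone and 5 had neither. Among the 54 cells without Bst1 transcript, 14 had Pou2af1 without Id2, 8 had both, 12 had Id2 alone and 20 had neither.

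None of the other B-lineage transcription factors met the rule. For Pax5, Ebf1, Foxo1, Ikzf1 and Bcl11a a call upward was impossible, because detection without the transcript left less than 20 points below 100%. Of the 9 measured, 1 was called higher (Pou2af1) and 0 lower, 5 differences were above 0, 1 was below and 3 were 0, with a median of 3.70 points. Pax5, the factor of B-lineage commitment, was detected in all 29 cells with Bst1 transcript and in 44 of 54 cells without (81.5%), 18.5 points apart (4.27 to 30.8), with 16.7 on plate 3 and 20.0 on plate 4. Ebf1 and Foxo1, which act upstream of Pax5, were each detected in 100% and 96.3%. Spib was detected in 24.1% and 18.5%, and Bach2, a transcriptional repressor active in B cells, in 20 of 29 and 43 of 54 cells. Ikzf1 and Bcl11a were detected in all cells of both classes, and Ikzf3 in 0. Per cell, 6.72 ± 0.84 of the 9 factors were detected with the transcript and 6.13 ± 0.97 without it. This count includes Pou2af1 and Pax5, which had the largest differences of the 9, and is not separate from them.

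Among the recombination genes, Rag1 lay nearest to the size rule. It was detected in 93.1% of cells with Bst1 transcript and 74.1% of cells without, 19.0 points apart (1.05 to 33.0), with 15.3 on plate 3 and 20.9 on plate 4. Its partner Rag2 was detected in 100% and 88.9%. Dntt, the terminal transferase that adds bases at the joints, was detected in 93.1% and 100%. None of these 3 was called, and their median was 11.1 points.

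Igll1, a surrogate light chain gene of the pre-B cell receptor, was detected in 65.5% of cells with Bst1 transcript and 48.1% of cells without, 17.4 points apart (-4.97 to 36.7), with 22.2 on plate 3 and 7.88 on plate 4. Where it was detected, its Ct was lower in cells with Bst1 transcript, at 11.57 ± 2.25 (19 cells) against 12.96 ± 2.32 (26 cells). This difference of -1.39 cycles, with -1.91 on plate 3 and -1.50 on plate 4, met the rule for levels within the group, which asked for 1 cycle overall and 0.5 on each plate. It was the only level called among 29 assays with enough cells (3.45% with a lower Ct, against 4 assays when plate 4 was left out). Relative to the reference assays it was -0.99 cycles and no longer met the rule. In the middle 50% of the reference Ct no level was called. Cd24a, a surface glycoprotein gene of the same list, was detected in all cells of both classes, and of the 3 genes measured in that list none was called by share.

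The next levels also lay towards more template in the cells with Bst1 transcript and stayed under 1 cycle. Foxo1 differed by -0.94 cycles, the stem cell factor receptor gene Kit by -0.85, Pou2af1 by -0.77 and Ebf1 by -0.75. The reference assay Hprt differed by -0.52 in the same direction and Atp5a1 by -0.17.

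Among the 3 survival genes none was called, and Bcl2 and Bad differed in opposite directions. Bcl2, which blocks apoptosis, was detected in 41.4% of cells with Bst1 transcript and 61.1% of cells without, a difference of -19.7 points (-39.5 to 2.57), with -15.3 on plate 3 and -21.2 on plate 4. Bad, which opposes Bcl2, was detected in 65.5% and 44.4%, 21.1 points apart (-1.38 to 40.2), but with 30.6 on plate 3 and 7.88 on plate 4. Bcl2l1 was detected in 58.6% and 59.3%.

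Apart from Id2, no gene of the other lineages was called. Of 3 granulocyte-monocyte genes measured, none was called, and cells with and without Bst1 transcript held 1.21 and 1.15 of them on average. Mpo, the granule peroxidase, was detected in 2 of 29 and 7 of 54 cells, Cebpa in 5 of 29 and 2 of 54, and Spi1, which early B-lineage cells also express, in 96.6% and 98.1%. Of 4 natural killer and innate lymphoid genes, Id2 was called lower and the other 3 were not called. Il2rb was detected in 0 of 29 and 1 of 54 cells, Klrb1c in 20.7% and 29.6%, and Nfil3 in 62.1% and 61.1%. Of 4 T-lineage and Notch genes none was called, with Notch1 in 96.6% and 96.3% and Gata3 in 10.3% and 3.70%.

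Among early lymphoid genes, Il7r and Ikzf1 were detected in all cells of both classes, so their detection could not separate the classes. Kit was detected in 93.1% and 85.2%, and its Ct differed by -0.85 cycles, short of the rule for levels. Gfra2, whose protein all of these cells were sorted for, was detected in 29 of 29 cells with Bst1 transcript and 47 of 54 without, 13.0 points apart (-0.44 to 24.4). When only cells with Gfra2 transcript were kept, Pou2af1 kept its call and Bad gained one, at 20.8 points. Gfra1, a related receptor gene, was detected in 86.2% and 81.5%, and Gfra3 and Ret in 0 cells of either class.

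**Figure D2:**
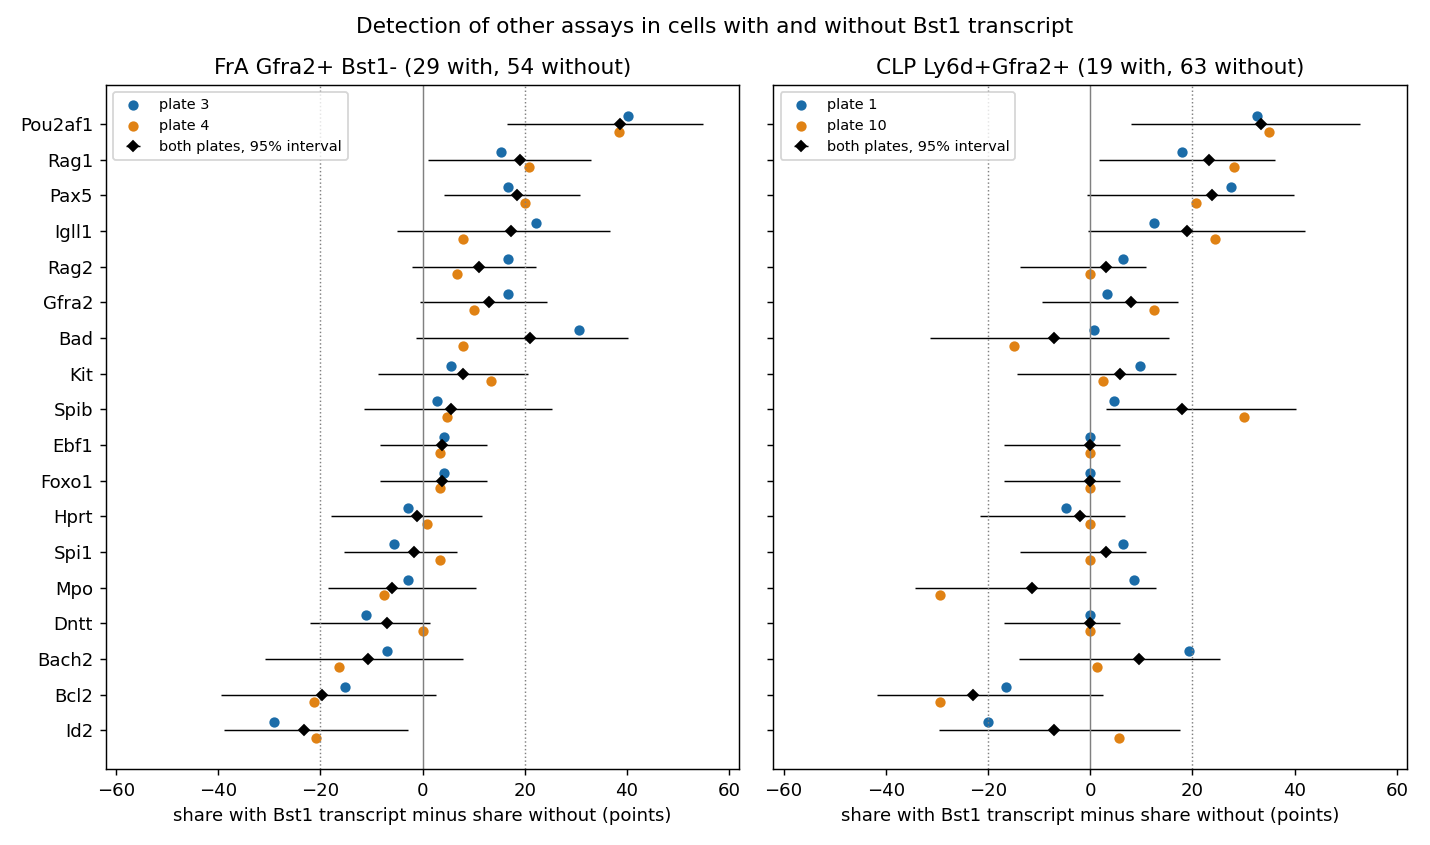
Difference in the percentage of cells with each assay detected, cells with Bst1 transcript minus cells without, in percentage points. Diamonds pool the plates with Newcombe 95% intervals, circles are single plates, and dotted lines mark 20 points either way. Pou2af1 stands at 38.6 points in FrA Gfra2+ Bst1- cells and at 33.5 points in CLP Ly6d+Gfra2+ cells, and Id2 at -23.2 and -7.10 points.

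The only other group with enough cells on both sides was Ly6d+Gfra2+ CLP, which had not been sorted by Bst1 and came from other plates. It held 19 cells with the transcript and 63 without. Under the same rule 4 of 46 assays were called higher in cells with the transcript (8.70%) and 1 was called lower (2.17%). Without plate 1 the counts were 7 and 2, and without plate 10 they were 3 and 1. The median over the 46 assays was 0 points, and 3.17 points over the 32 that were neither at 0 nor in every cell. Cells with the transcript held 27.1 ± 2.40 other detected assays against 25.4 ± 2.83, while their mean reference Ct was higher, 12.05 ± 0.82 against 11.91 ± 0.94.

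Pou2af1 was again the assay with the largest difference. It was detected in 13 of 19 cells with Bst1 transcript (68.4%) and in 34.9% of cells without, 33.5 points apart (7.92 to 52.9), with 32.6 on plate 1 and 35.0 on plate 10. Pax5 was detected in 84.2% and 60.3%, a called difference of 23.9 points, and Rag1 in 94.7% and 71.4%, a called difference of 23.3 points. The other assay called higher is named TCF in the table and was detected in 36.8% and 9.52% of cells, 27.3 points apart (7.12 to 50.0). In FrA Gfra2+ Bst1- cells it stood at 17.2% and 14.8%. The TCF call was lost in the middle 50% of the reference Ct (9.85 points) and at a detection limit of Ct 20 (18.4 points). The assay called lower was Bcl2, in 26.3% of cells with Bst1 transcript and 49.2% without, a difference of -22.9 points with -16.5 on plate 1 and -29.4 on plate 10. Pax5 and Rag1 fell just under 20 points, at 19.6 and 19.0, when cells were compared on each side of the median number of other assays detected. Pax5 was also under the rule, at 18.7 points, when only cells with Gfra2 transcript were kept. Rag1 was also under the rule without plate 10 (17.9 points), as was Bcl2 (-16.5 points).

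Id2 was detected in 42.1% and 49.2% of these CLP, a difference of -7.10 points that ran from -20.1 on plate 1 to 5.63 on plate 10. Igll1 was detected in 31.6% and 12.7%, 18.9 points apart and not called. By level, 2 of 26 assays had a lower Ct in cells with Bst1 transcript (7.69%), against 1 without plate 1 and 4 without plate 10. Pax5 differed by -1.35 cycles, at 15.43 ± 1.53 (16 cells) against 16.78 ± 1.49 (38 cells), and Pou2af1 by -1.04 cycles, at 22.87 ± 1.59 (13 cells) against 23.91 ± 1.74 (22 cells). Without plate 1 the Pax5 difference was -0.74 cycles, and without plate 10 that of Pou2af1 was -0.80 cycles, both under the rule. Whether the differences in the FrA and CLP cells differ from each other was not tested.

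The 10 cells with Bst1 transcript in Gfra2- groups were too few for a comparison, and their values are given as counts. In Ly6d+Gfra2- CLP, Gfra2 was detected in 1 of 5 of them and Ebf1 in 5 of 5, with Pax5 in 1, Rag1 in 3, and Pou2af1 and Igll1 in 0. The cells of that group without Bst1 transcript had Ebf1 in 71.6%, Pax5 in 8.64% and Rag1 in 32.1%. In FrA Gfra2- Bst1- cells, Gfra2 was detected in 1 of 5, Ebf1 in 3, Pax5 in 2, Pou2af1 in 1 and Id2 in 0, beside 12.8%, 53.8%, 19.2%, 2.56% and 38.5% in the cells without.

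The cells with the transcript and without the surface label were next set beside the Bst1+ sort. This gave 3 classes of FrA Gfra2+ cells, 54 sorted as Bst1- without transcript, 29 sorted as Bst1- with transcript, and all 42 of the Bst1+ sort, the last on plate 11 alone. Both comparisons with the 29 cells share those cells, so only the values are given. Pou2af1, Bad, Rag1, Pax5, Bcl2 and Id2 also had the largest differences, either way, in the division of these same cells. Choosing assays in this way can by itself place the 29 cells beyond the other classes, so their position is no separate result. Mean reference Ct was 11.84, 11.60 and 11.87 in this order, and the spike-in Ct was 6.68, 6.75 and 8.35.

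Pou2af1 was detected in 40.7%, 79.3% and 71.4% of cells in this order, and Pax5 in 81.5%, 100% and 97.6%. For these genes the cells with transcript stood close to the Bst1+ sort in share. For Igll1 they stood between the other classes, with 48.1%, 65.5% and 78.6% of cells and mean Ct values of 12.96, 11.57 and 10.50. The Pax5 Ct of detecting cells was 16.05, 15.58 and 14.48, so by level the cells with transcript were nearer to the cells without it. Ebf1 Ct was 11.21, 10.47 and 10.45.

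For Rag1, Id2, Bcl2, Bad and Gfra1 the share in the 29 cells did not lie between those of the other classes. Rag1 was detected in 74.1%, 93.1% and 73.8%, Id2 in 37.0%, 13.8% and 31.0%, Bcl2 in 61.1%, 41.4% and 52.4%, and Bad in 44.4%, 65.5% and 40.5%. Gfra1 was detected in 81.5%, 86.2% and 61.9%, and Notch1, the receptor that directs progenitors to the T lineage, had a mean Ct of 15.83, 16.03 and 17.01. For Gfra1 and Notch1 the cells with transcript were on the side of the cells they had been sorted with.

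The 5 cells of the Bst1+ sort without Bst1 transcript were kept as values. They held 23 to 27 other detected assays, and their mean reference Ct was 12.02 (10.1 to 13.4) against 11.85 in the 37 cells with transcript. Pax5 and Pou2af1 were each detected in 4 of 5, Igll1 in 2 of 5 and Rag1 in 3 of 5. Among the 37 cells, Pax5 was detected in 100%, Pou2af1 in 70.3%, Igll1 in 83.8% and Rag1 in 75.7%.

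**Figure D3:**
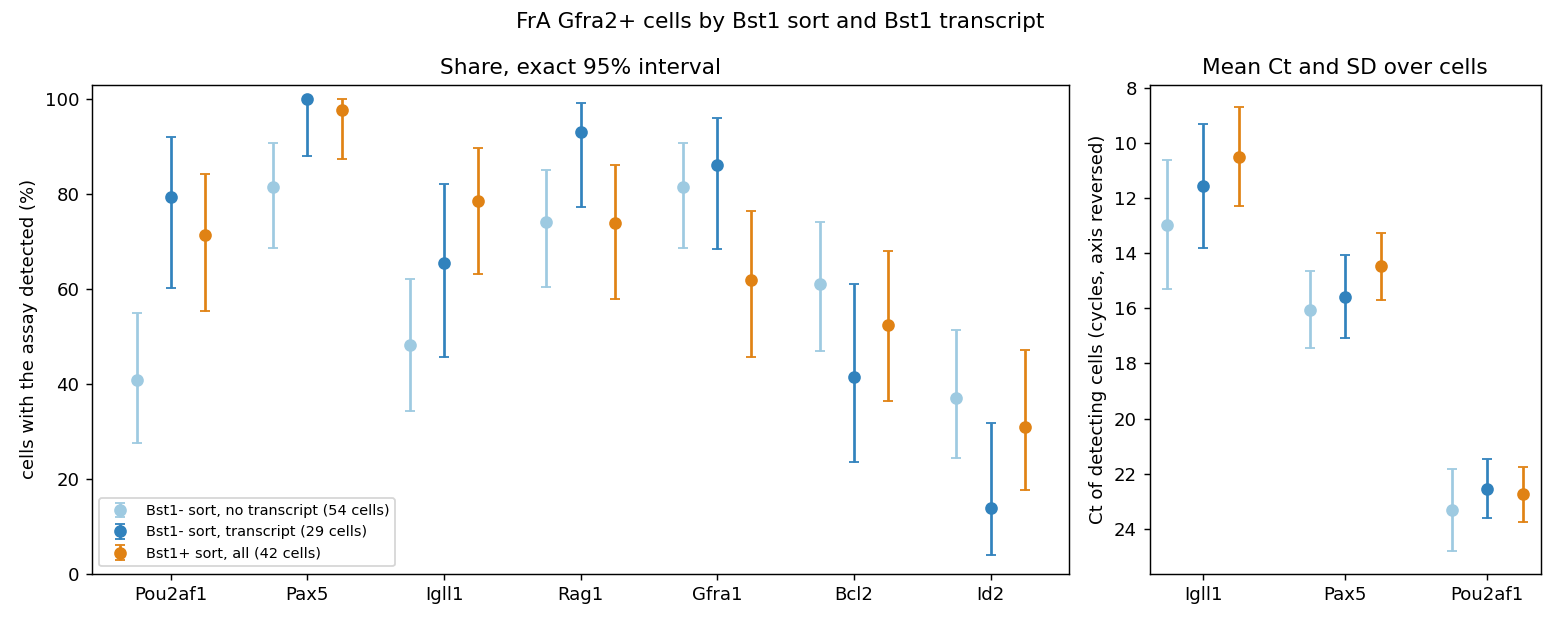
FrA Gfra2+ cells in 3 classes by sort label and Bst1 transcript. Left, percentage of cells with each assay detected, with exact 95% intervals. Right, mean Ct in cycles with SD over detecting cells, axis reversed. Pou2af1 and Pax5 shares of the 29 Bst1- sorted cells with transcript (79.3% and 100%) lie near the 42 Bst1+ sorted cells (71.4% and 97.6%), whereas Id2 (13.8%) lies below both other classes.

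Over the 11 plates, the share of cells with Bst1 was compared with that of the other assays. Among 29 assays whose plate shares spanned at least 10 points, Spearman's rho with Bst1 was 0.95 for Pax5, 0.93 for Igll1, 0.89 for Pou2af1 and 0.87 for Gfra1, which are 4 of the 5 highest. The lowest were Bcl2 at -0.82, Il2rb at -0.62 and Mpo at -0.62. Plates of 1 group are not independent, and these values follow the order of the sorted groups. Within single plates of FrA Gfra2+ Bst1- cells, where the group is held fixed, the phi coefficient with Bst1 over cells was 0.40 on plate 3 and 0.34 on plate 4 for Pou2af1. It was 0.28 and 0.25 for Pax5, 0.22 and 0.07 for Igll1, and 0.14 and -0.06 for Gfra1.

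Each of plates 1 to 10 also held 1 well with 10 cells and 1 with 20 cells. The sorted group of a pool was taken from the single cells of its plate, and the expected counts given here rest on that. Bst1 was detected in 7 of 10 of the 10-cell wells and in 9 of 10 of the 20-cell wells. From the share of single cells on each plate, 5.55 and 6.62 wells were expected if cells entered wells independently. On the FrA Gfra2+ Bst1- plates, Ct was 13.9 (10 cells) and 11.8 (20 cells) on plate 3 and 13.3 and 14.4 on plate 4. On the Ly6d+Gfra2+ CLP plates it was 14.6 and 13.3 on plate 1 and 15.3 and 14.5 on plate 10. Pools on the plates of Ly6d+Gfra2- CLP and FrA Gfra2- Bst1- cells were later or not detected. The Ct was 18.2 and 16.9 on plate 2 and 17.1 and 18.3 on plate 6. On plate 7 there was none in the 10-cell well and 16.7 in the 20-cell well, and on plate 8 it was 15.9 in both wells.

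On the plates of Ly6d-Gfra2- CLP no single cell had Bst1, and the pools differed between the plates. On plate 5, where 0 of 42 single cells had Bst1, the 20-cell well had a Ct of 14.5, within the range of single detecting cells, and the 10-cell well had none. On plate 9 neither well had a Ct.

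Over the 7 plates with Bst1 in both wells, the 10-cell well was 0.46 ± 1.31 cycles (SD) later than the 20-cell well, and later on 5 of 7 plates. Plates 5 and 7, where the 20-cell well had a Ct and the 10-cell well had none, could not enter this mean, which leaves out a delay in that direction. Over the 7 plates the delay was not distinguishable from 0 (exact two-sided sign-flip test, p = 0.359, adjusted p = 0.371 by Benjamini-Hochberg over 33 assays, where the smallest p that 7 plates allow is 0.0156). The labels do not say that plates came from separate animals, so this p measures only the spread between plates. Over the 33 assays the median delay was 0.99 cycles, and 25 had an adjusted p under 0.05. That median lies within 1 SD of the Bst1 delay, and a difference between them was not tested.

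**Figure D4:**
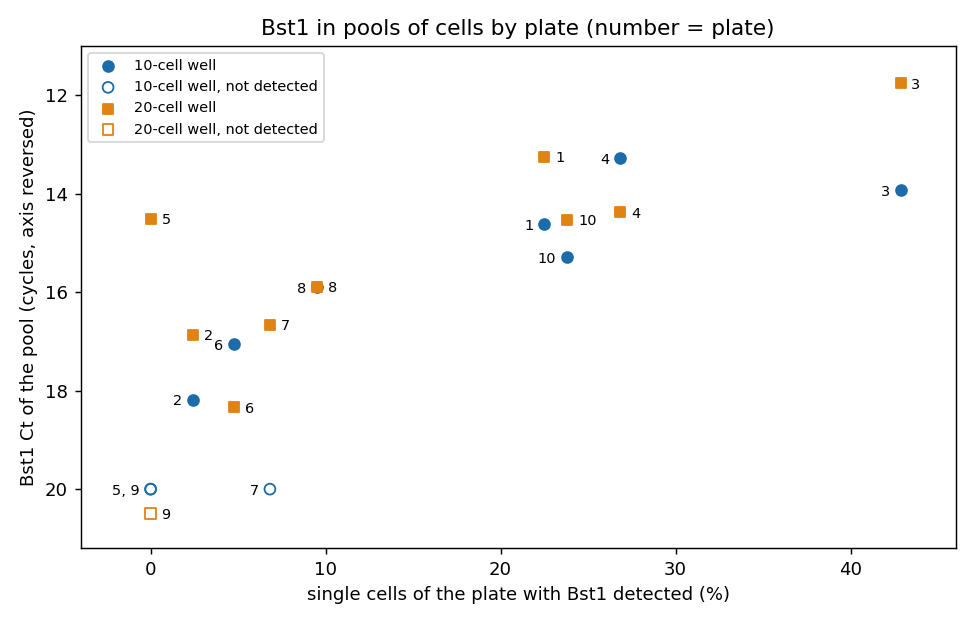
Bst1 Ct in cycles (axis reversed) of the 10-cell wells (circles) and 20-cell wells (squares) against the percentage of single cells with Bst1 transcript on the same plate, with the plate number beside each point. Open symbols at the bottom are wells without a Ct. The 20-cell well of plate 5 stands at 14.5 cycles although 0 of 42 single cells of that plate had the transcript.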

How the data were processed

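Single cells and small pools of sorted mouse bone marrow cells had been lysed, reverse transcribed, pre-amplified and read with TaqMan assays on a Fluidigm BioMark chip (per the labels). Ct scores were deposited, a reading based on the protocols and on the range of the values, 4.69 to 28.1, with 46.8% at exactly 40. The sources used here do not give the software or quality thresholds. The table held 486 wells and 48 assays, 1 of them a spike-in, although the labels speak of more assays.

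Groups came from the labels. Detection was a Ct of at most 28. Shares carry exact Clopper-Pearson and differences Newcombe 95% intervals, for counting error only. Size rules, stated where first used, took the place of tests, because cells of a sorted group are not replicates; the pools were compared with an exact sign-flip test over plates. The gene, the lists and the rules were chosen with earlier results of these data known.

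Named assays were Bst1, all those called in the division of FrA Gfra2+ Bst1- cells, the 3 largest and 3 smallest differences, members of the B-lineage, pre-B, recombination and granulocyte-monocyte lists, Gfra2, reference assays, and the 5 highest and 3 lowest likenesses. Other genes were named after their values had been seen. Values of some assays are not reported here, although they stay in all counts. Alternatives were other Ct limits (24 and 20), other cell filters, the middle 50% of the reference Ct, leaving out plates or well positions 30, 36, 42 and 48, comparison on each side of the median reference Ct or number of other assays, and Ct relative to reference. Python 3.11.15, pandas 2.3.3, numpy 2.4.6, scipy 1.17.1 and matplotlib 3.10.9 were used.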

Additional observations from a re-analysis of the deposited data

Results flagged for a closer look

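Bach2 lay in opposite directions in the groups divided by Bst1 transcript. In FrA Gfra2+ Bst1- cells it was detected in fewer cells with the transcript, by -10.7 points (-30.8 to 7.95). The difference was -6.94 on plate 3 and -16.4 on plate 4. In Ly6d+Gfra2+ CLP it was detected in more cells with the transcript, by 9.61 points (-14.0 to 25.4). This came mostly from plate 1, with 19.4 points there and 1.25 on plate 10. Both intervals hold 0. Neither value met the size rule, and the difference between the groups was not tested.

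On plate 8, a pair of wells is titled as lacking reverse transcriptase while its description calls them cells. They entered no comparison. The well at position 36 had 25 gene assays detected and an Atp5a1 Ct of 12.1, and the well at position 30 had 26 and an Atp5a1 Ct of 11.5. Single cells of that plate had 21.5 ± 3.44 (SD, 42 cells). Bst1 was at 40, with no Ct, in both wells.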

How the results depend on the processing

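The Bst1 shares and all 5 share differences between groups kept their direction and their side of the rule under every alternative run. Bst1+ minus Bst1- FrA cells ran from 45.2 to 61.3 points without plate 3 or 4. In the FrA division, the number of assays called higher was 0 at Ct 20, 3 with all 3 reference assays, 2 in the middle 50% of reference Ct, 2 with Gfra2 transcript only, and 2 to 3 leaving out a plate. The number called lower was 2 on each side of the median reference Ct and 1 to 3 leaving out a plate. The number with a lower Ct was 0 in the middle 50% and 0 relative to reference, and 1 to 4 leaving out a plate; with a higher Ct it was 0 to 1. Pou2af1 was called in 10 of 11 alternatives, all but Ct 20, in FrA and likewise in CLP. Rag1 (20.9 to 22.7) and Bcl2 (-25.6 to -20.6) crossed 20 points under some of them.

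In the CLP division, the number called higher was 2 at Ct 20, 2 on each side of the median number of other assays, and 3 to 7 leaving out a plate; the number called lower was 1 to 2. The number with a lower Ct was 1 at Ct 24, 1 at Ct 20, and 1 to 4 leaving out a plate. No Pou2af1 value reaches Ct 20, and in the CLP division the TCF call was lost there too (18.4 points); the cause was not tested for the other moves. The delay of 10-cell wells turned to -0.39 cycles relative to reference (p = 0.359, exact sign-flip test). The division of the CLP cells, the levels within a group, the Gfra2 setting and the number of other assays were alternatives chosen after seeing the data. No paired analysis was possible because no replicate number joins cells of different groups. Small classes and a single plate of Bst1+ cells limit the precision.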
